A study of Arabidopsis thaliana with 4 samples.

Results

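H3K27me3, the trimethylation of lysine 27 on histone H3, formed 416 short runs of 2 to 4 neighbouring probes on this tiling array, out of 929 runs of any length. A probe was called upper when it lay at least 1 unit above the array median in both replicates, and a run is an unbroken set of upper probes in consecutive wells. The 416 short runs held 1167 of the 3524 upper probes (33.1%). Because these same values chose the runs, their heights are given as a description, and no test is made on them.

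H3K27me3 is set by Polycomb repressive complex 2, whose catalytic subunits in Arabidopsis seedlings include CURLY LEAF and SWINGER. The mark keeps developmental regulators silent, is bound by LIKE HETEROCHROMATIN PROTEIN 1, and is removed by demethylases such as REF6. In Arabidopsis it often covers the transcribed region of single genes, whereas Polycomb domains of animals can span gene clusters. Whether the runs of wells described here correspond to such stretches was not tested.

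The material was untreated 10-day seedlings of Arabidopsis thaliana ecotype Col-0, the wild-type reference line, grown in liquid medium. All 4 arrays form 1 group, an immunoprecipitate obtained with a commercial antibody against H3K27me3 set against input chromatin. There were 2 immunoprecipitations, called replicates I and II (also I and II for short), each hybridised on 2 arrays with the dyes exchanged. Whole seedlings were used, so the share of cells that carry the mark and its level per cell cannot be told apart.

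The deposited table lists 21800 features, and 21740 plate-and-well probes carry a value. The 2 arrays of each dye pair carry the same values, so each probe has 1 value per replicate and n = 2 throughout, and the spread between the replicates may be technical, since no label says that they came from separate cultures. The values behave as a log ratio for which the sources used here give neither base nor direction. Immunoprecipitate over input is the likely direction, on the sole basis that the long tail of the values is on the high side. All values below are units of the deposited scale above the median of their replicate. With 2 replicates an exact sign-flip permutation test cannot go below p = 0.5, so no test over replicates is given. Probes are not paired with genes, positions or sequences here, and the length of a run is therefore given in wells. Wells are ordered by plate, row and column within the 5 series named TA, TB, TC, TD and PD. The sources used here do not say whether probes follow this order along the genome.

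Runs of 2 made up 178 of the short runs (42.8%), runs of 3 made up 141 (33.9%) and runs of 4 made up 97 (23.3%). For comparison, 16.2% of all 21740 probes were upper, 264 runs held a single probe, 191 held 5 to 9 and 58 held 10 or more. The rule of size was met on the opposite side by 10 probes (0.046%) with values 1 unit or more under the median in each replicate, and these formed 1 run of 2 and no longer one. Without centring, 190 short runs were found. The deposited medians are -0.94 and -1.20, so the rule of 1 unit is by construction stricter without centring. Centring on the mode gave 438 short runs, and quantile normalization gave 416.

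Short runs stood at 2.20 ± 0.44 units in replicate I and 1.59 ± 0.35 units in II (mean ± SD over 416 runs, each run averaged over its probes). Their run means went from 1.17 through a median of 2.20 to 3.85 units in replicate I. In replicate II they went from 1.03 through a median of 1.52 to 3.04 units. Replicate I was the higher of the replicates in all but 3 of the 416 runs, by a mean of 0.61 ± 0.25 units (SD over runs). This difference depends on the scale of the replicates. After quantile normalization the short runs called averaged 1.78 units in replicate I and 1.76 in II. With equal spread by median absolute deviation they averaged 1.92 and 1.69 units.

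The 3 exceptions were runs of 2, and they are named here because they were so few, after their values were seen. TA87F07 to TA87F08 averaged 1.17 units in replicate I and 1.37 in II. TB54F06 to TB54F07 averaged 1.23 and 1.56 units in the same order, and TA91E04 to TA91E05 averaged 1.18 and 1.22 units. All of them were low in replicate I, below the lower quartile of the short runs (1.89 units).

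Height went up with length inside the class. Runs of 2 averaged 2.08 ± 0.45 units in replicate I and 1.49 ± 0.34 in II. Runs of 3 averaged 2.28 ± 0.40 and 1.65 ± 0.33 units, and runs of 4 averaged 2.33 ± 0.40 and 1.69 ± 0.33 units. The step between runs of 3 and runs of 4 was smaller than the SD among the runs of either length, and so was that between runs of 2 and runs of 3.

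The other length classes bracketed the short runs, with wide overlap. Short runs averaged 2.20 units in replicate I, against 1.84 ± 0.46 for single probes, 2.49 ± 0.39 for runs of 5 to 9 and 2.70 ± 0.38 for runs of 10 or more. In replicate II the short runs averaged 1.59 units, against 1.34 ± 0.35, 1.85 ± 0.33 and 2.06 ± 0.30 units in the same 3 classes. Whether the way runs are defined accounts for the order of the classes was not tested.

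**Figure D1:**
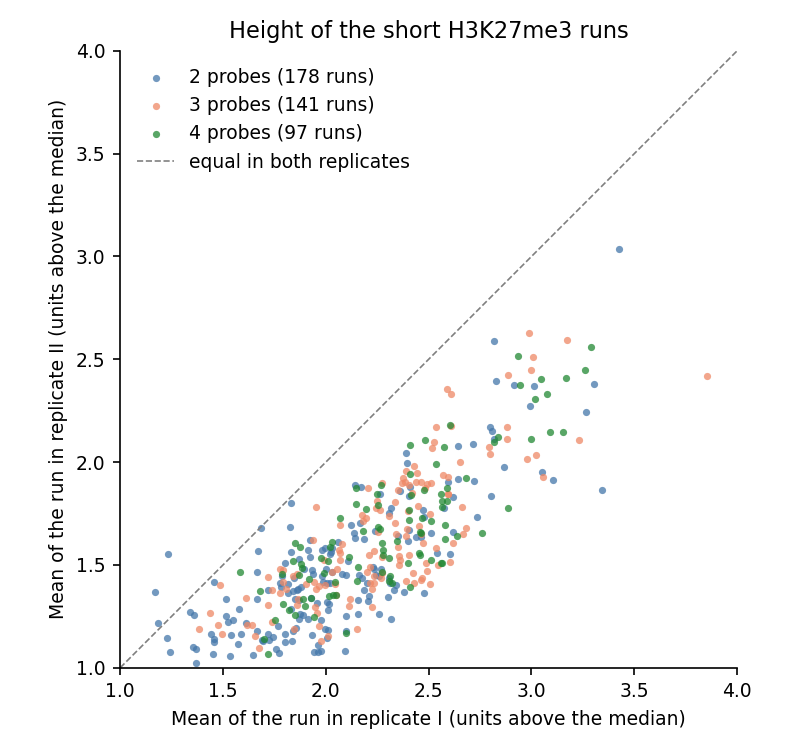
Mean of each of the 416 short runs in replicate I (x axis) and replicate II (y axis), in units above the replicate's median, coloured by the number of probes; the dashed line marks equal values. All but 3 runs lie below the line, and runs of 2, 3 and 4 overlap over most of the range.

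Across the 416 runs the replicate means correlated at r = 0.82, and over all probes with a value the replicates correlated at r = 0.93. The r over the runs is a description: the runs share 2 immunoprecipitations, they were selected on both axes, and they are not independent replicates. Per unit of replicate I, replicate II went up by 0.65 units (least squares).

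Height was also read in a replicate that had no part in the call. When runs were called in replicate II alone, 414 runs of 2 to 4 were found, and in replicate I they averaged 2.15 ± 0.47 units (SD over runs). In 382 of these 414 runs (92.3%) every probe passed 1 unit in replicate I as well, where 23.8% of all probes did. Only 2 of them (0.483%) had no passing probe in replicate I. Almost every short run of replicate II was thus also high in replicate I, but this was not particular to short runs. The share with every probe passing was 65.1% for single probes, 91.2% for runs of 5 to 9 and 86.2% for runs of 10 or more. Array-wide, 3724 probes reached 1 unit in replicate II, and only 200 of these fell short of it in replicate I. The 23.8% counts single probes, so it is not a measure for whole runs.

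The reverse reading was weaker. Replicate I alone gave 476 runs of 2 to 4, of which 119 (25%) passed 1 unit at every probe in replicate II, where 17.1% of all probes did. In 146 of them (30.7%) no probe passed in replicate II. The share with every probe passing was 25% for short runs, against 25.7% of single probes, 21.3% of runs of 5 to 9 and 12.5% of runs of 10 or more. Such a share depends on the number of probes in a run by construction, and no order is read from it. The fixed rule of 1 unit is the stricter one in replicate II, whose median absolute deviation was 0.37 units, against 0.46 units in replicate I.

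The highest short runs stood near 3 units on average over the replicates. PD03E06 to PD03E07 came first, with wells at 3.63 and 3.22 units in replicate I and at 3.20 and 2.87 units in II (run mean 3.23 ± 0.28, SD, n = 2). TA12B01 to TA12B03 followed, with 3.26, 4.41 and 3.89 units in replicate I and 1.91, 3.12 and 2.23 units in II (3.14 ± 1.01). The second of these rests more on replicate I, where it was the highest short run of all.

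PD03C08 to PD03C11 averaged 3.29 units in replicate I and 2.56 in II (2.92 ± 0.51). TA85F02 to TA85F04 averaged 3.17 and 2.59 units (2.88 ± 0.41), and TB48A03 to TB48A06 averaged 3.26 and 2.45 units (2.86 ± 0.57). Of these 5 runs, 3 had another run 1 well away, namely PD03E06 to PD03E07, TA85F02 to TA85F04 and TB48A03 to TB48A06. TB48A03 to TB48A06 had one on each side, across TB48A02 at 1.19 and 0.72 units and TB48A07 at 1.64 and 0.78 units in replicates I and II. Both of these bridging wells passed the rule in replicate I and missed it in replicate II.

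At the other end, the runs just inside the rule were held in by single values. TA91E04 to TA91E05 had 1.07 and 1.29 units in replicate I and 1.43 and 1.001 units in II. TB23D02 to TB23D05 had 1.63, 1.90, 2.05 and 1.77 units in replicate I and 1.54, 1.67, 1.87 and 1.001 units in II. TB19H08 to TB19H10 had 2.37, 1.71 and 1.79 units in replicate I and 1.62, 1.002 and 1.19 units in II. In each of them the limiting well was in replicate II.

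Just outside the rule stood pairs of which 1 well was upper and the other missed by little. TB61D06 to TB61D07 had 1.98 and 2.18 units in replicate I and 0.998 and 1.04 units in II. TA30C05 to TA30C06 had 1.72 and 1.53 units in replicate I and 1.31 and 0.997 units in II. TB65E10 to TB65E11 had 1.21 and 2.05 units in replicate I and 0.989 and 1.04 units in II. The values on the 2 sides of the rule thus differ by less than the SD between replicates of any run named above as highest.

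Runs of 3 and 4 were on average highest at an inner well, whereas runs of 2, which have none, were level. In runs of 3 the successive wells averaged 2.20, 2.47 and 2.17 units in replicate I and 1.54, 1.84 and 1.56 units in II. In runs of 4 they averaged 2.08, 2.51, 2.55 and 2.20 units in replicate I and 1.44, 1.89, 1.92 and 1.499 units in II. The wells of runs of 2 were level, at 2.09 and 2.06 units in replicate I and 1.497 and 1.49 units in II. Lower ends follow in part from the rule, since an end well lies beside a well that did not pass.

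**Figure D2:**
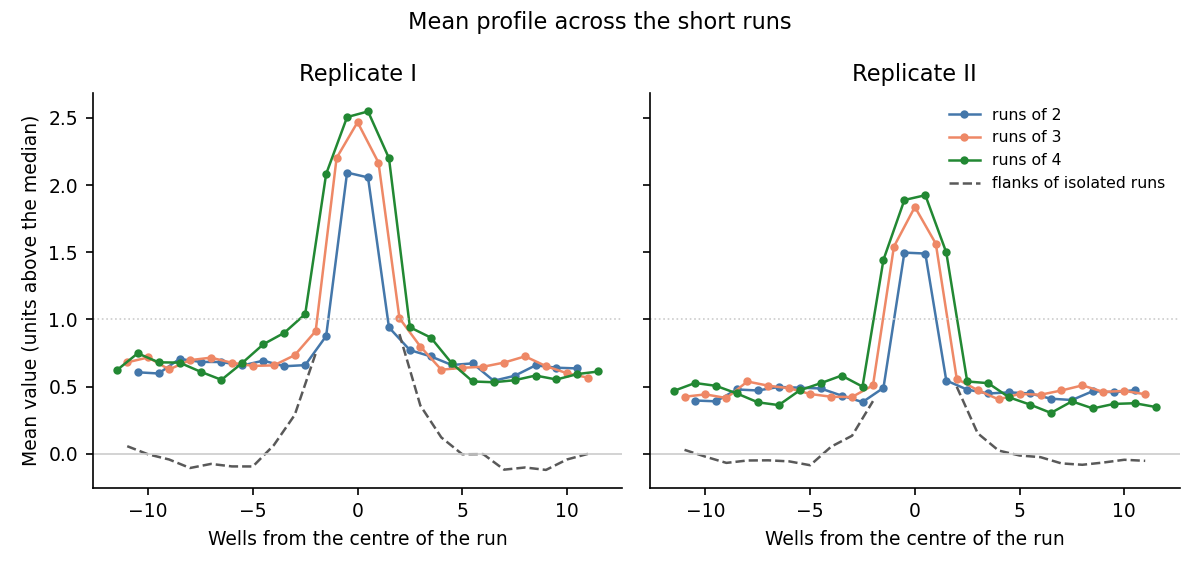
Mean value at each well from the centre of the run (x axis, in wells), in units above the median, for runs of 2, 3 and 4 in replicate I (left) and replicate II (right); the dashed grey line gives the flanks of isolated runs, the dotted line the rule of 1 unit and the solid line the median. The peaks have nearly equal slopes on both sides, and the flanks of isolated runs come down to the median within about 4 wells, as the rule for isolation requires in part.

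The middle well was the top of a run of 3 in 76 of 141 runs in replicate I and 77 in II, and in 62 runs (44.0%) it was so in both. An inner well was the top of a run of 4 in 78 of 97 runs in replicate I and 81 in II, and in 72 runs (74.2%) in both. Of all windows of 3 and 4 consecutive valued wells on the array, runs included, 15.0% and 27.5% had an inner top in both replicates. Runs end beside lower wells by definition and other windows need not, so nothing is read from this difference. The range from the lowest to the highest well of a run had a median of 0.28 units for runs of 2, 0.65 for runs of 3 and 0.86 for runs of 4 in replicate I. In replicate II these medians were 0.28, 0.59 and 0.83 units.

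The replicates placed the top in the same well in 302 of the 416 short runs (72.6%). By length, the share was 75.8% for runs of 2, 74.5% for runs of 3 and 63.9% for runs of 4. All windows of the same number of consecutive valued wells on the array, runs included, gave 70.9%, 62.5% and 58.8%. These shares were set side by side without a test, because windows overlap and share their wells.

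The first well beyond a short run averaged 0.95 ± 0.64 units in replicate I and 0.52 ± 0.40 in II (SD over 829 edge wells). Its value on the near and far sides of the run differed little on average, by -0.04 ± 0.87 units in replicate I and -0.05 ± 0.54 units in II (before minus after, SD over the 413 runs with both values). Single runs could be lopsided: in 31 of the 413, one edge well lay below the median in replicate I while the other was at 1 unit or more there.

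Wells just beyond a short run passed the rule in replicate I alone more often than in II alone, as did probes of the whole array. Of the 829 edge wells, 403 (48.6%) passed 1 unit in replicate I and missed it in replicate II. Only 34 (4.10%) did the opposite, and 392 (47.3%) missed it in both. Over the whole array, 1659 probes passed in replicate I only and 200 in replicate II only, which is 9.11% and 1.10% of the probes that were not upper. The share that passed in replicate I alone was 45.6% beside single probes, 50.1% beside runs of 5 to 9 and 51.7% beside runs of 10 or more. The share for short runs lay within the range of the other classes.

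Sharp ends on both sides were rare. Edge wells below the median in both replicates numbered 46 of 829 (5.55%), and just 4 short runs had such a well on each side. They were TB28A05 to TB28A07 (2.88 units in replicate I and 2.11 in II), TB09C01 to TB09C02 (2.00 and 1.19 units), TA51E03 to TA51E04 (1.61 and 1.22 units) and TA87A10 to TA87A12 (1.49 and 1.40 units). These 4 were singled out after their values were seen. Low edge wells were also few in the other classes. They made up 8.62% beside single probes, 5.51% beside runs of 5 to 9 and 4.31% beside runs of 10 or more.

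Many short runs were part of longer stretches in replicate I. With replicate I alone, 222 of the 416 (53.4%) lay in a run of 2 to 4 and 194 (46.6%) in a run of 5 or more, 64 of them in runs of 10 or more. With replicate II alone, 404 (97.1%) stayed at 2 to 4. Runs that were 2 to 4 long in each replicate alone numbered 214 (51.4%). Leaving out 1 replicate drops a condition, so by construction a run could only keep its length or grow. Room for growth was unequal, since 1659 probes passed in replicate I only and 200 in replicate II only. The fixed rule of 1 unit is also the stricter one in replicate II. Other length classes were not followed in this way, so no trait of short runs is read from these counts.

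The rule of size also changed the length of runs, in a direction set by construction. A looser rule can only keep or lengthen a run, and a stricter one can only keep, shorten, split or remove it. At 0.5 units in both replicates, 203 of the 416 runs (48.8%) were still 2 to 4 long and 213 (51.2%) lay in a longer run. At 1.5 units, 191 (45.9%) were still 2 to 4 long, 121 (29.1%) were down to a single probe, 1 was split and 103 (24.8%) were gone. In all, 75 runs (18.0%) were 2 to 4 long at 0.5, 1 and 1.5 units. About 1 short run in 5 was thus short at each of these rules.

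Most short runs lay close to another run. The nearest other run was a median of 4 wells away, with quartiles of 1 and 9 wells and a maximum of 259. In 134 runs (32.2%) a single well separated them, in 44 (10.6%) 2 wells, in 29 (6.97%) 3 wells and in 106 (25.5%) 4 to 9 wells. The remaining 103 (24.8%) were isolated, with no upper probe within 10 wells on either side.

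The spacing of the other length classes is set beside that of the short runs. A gap of 1 well was the nearest for 32.2% of the short runs, against 29.5% of single probes, 30.4% of runs of 5 to 9 and 39.7% of runs of 10 or more. Isolation was found for 24.8% of the short runs, against 23.1%, 20.4% and 13.8% of these classes. No test of these differences was made, since runs of the same arrays are not replicates.

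**Figure D3:**
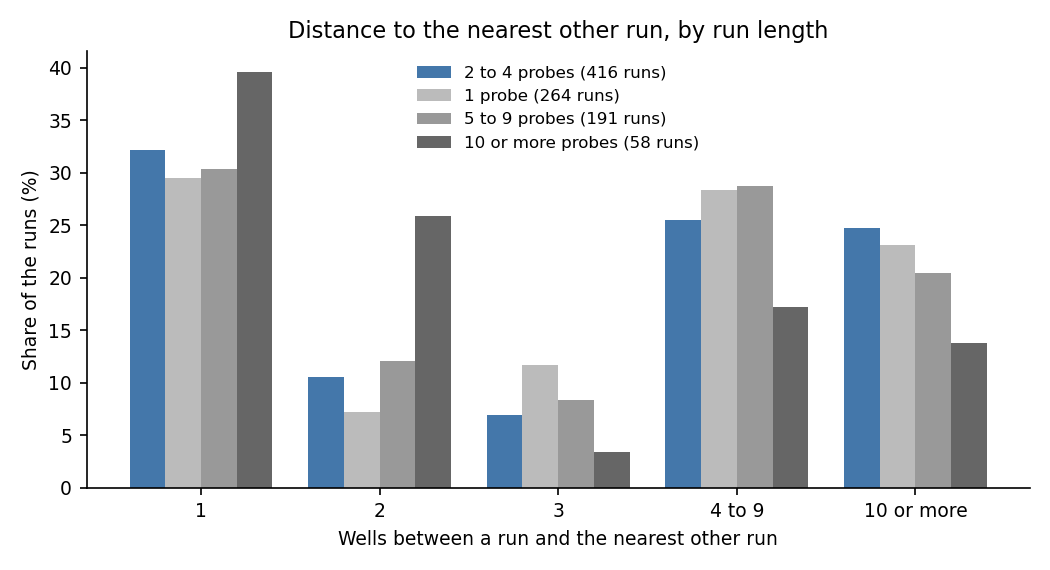
Share of the runs of each length class (y axis, percent) by the number of wells to the nearest other run (x axis); blue bars are the 416 short runs and grey bars the other classes. Short runs were near another run across 1 well in 32.2% of cases and isolated in 24.8%.

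A single well parted a short run from a neighbouring run on 142 sides, at 111 distinct wells. These gap wells had a median of 1.35 units in replicate I (quartiles 0.86 and 1.72) and 0.83 units in replicate II (quartiles 0.61 and 0.94). Of the 111, 72 passed 1 unit in replicate I only, 9 in replicate II only and 28 in neither, and 2 carried no value. Most of these gaps were thus shallow dips that crossed the rule in replicate II.

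Deep gaps of 1 well were few, and both that lay below 0.5 units in both replicates are named here after their values were seen. TA35E06, next to the run TA35E03 to TA35E05, had 0.27 units in replicate I and -0.05 in II. TA68H11, next to the run TA68H12 to TA69A01, had -0.08 units in replicate I and -0.11 in II. Plate TA 68, where this well lies, stood apart: 19 of its 22 upper probes were single, and no other plate had more than 5 single ones.

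The runs across such a gap are set beside the make-up of all runs. Another short run stood there on 62 of the 142 sides (43.7%, where 44.8% of all runs are short) and a single probe on 40 sides (28.2%, of 28.4%). Runs of 5 to 9 stood there on 29 sides (20.4%, of 20.6%) and runs of 10 or more on 11 sides (7.75%, of 6.24%). When single wells that were not upper or had no value were bridged, 314 of the 416 runs (75.5%) still held 2 to 4 upper probes and 102 (24.5%) belonged to a run of 5 or more.

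The 103 isolated runs had the lengths and nearly the heights of the other short runs. They comprised 45 runs of 2, 35 of 3 and 23 of 4. Isolated runs averaged 2.14 ± 0.38 units in replicate I and 1.56 ± 0.32 in II, against 2.22 ± 0.45 and 1.60 ± 0.35 units for the other 313. The differences were smaller than the SD among runs.

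Around isolated runs the values sank to the array median within a few wells. The first well out averaged 0.82 ± 0.71 units in replicate I and 0.44 ± 0.44 in II (SD over 206 wells). The second averaged 0.32 and 0.14 units, the third 0.09 and 0.04 units and the fourth -0.05 and -0.05 units. Around all short runs the tenth well out averaged 0.62 units in replicate I and 0.43 in II, with medians of 0.23 and 0.16 units, and 20.6% of these wells were upper, against 16.2% of all probes. Absence of upper probes from the flanks of isolated runs is the rule itself, so the flanks of the isolated runs and of all short runs are not compared.

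The highest isolated run was PD03C08 to PD03C11. Its wells read 2.72, 3.41, 3.59 and 3.43 units in replicate I and 1.62, 2.82, 3.15 and 2.66 units in II. Its left edge was abrupt, at 0.10 and -0.46 units in PD03C07, whereas PD03C06 beyond it stood at 1.68 and 0.96 units, just short of the rule in replicate II. Distances in the PD series count wells that hold no probe, and distances in the other series likewise count wells without a value.

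TA71C05 to TA71C08 had 2.75, 3.29, 3.62 and 3.02 units in replicate I and 1.73, 2.64, 3.17 and 2.10 units in II. It began in 1 step from -0.13 and -0.10 units in TA71C04, and ended over TA71C09, which had 1.85 and 0.77 units. The third well was the top in both replicates.

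TA90H01 to TA90H02 was the highest isolated pair, at 3.02 and 2.62 units in replicate I and 2.86 and 2.31 units in II. The replicates were close here, with run means of 2.82 and 2.59 units. Its left edge was low, at 0.13 and 0.02 units in TA90G12, whereas TA90H03 after the run stood at 0.85 and 0.47 units.

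TB28A05 to TB28A07 was the most sharply bounded of the high ones. Its wells had 2.995, 3.33 and 2.31 units in replicate I and 2.64, 2.54 and 1.15 units in II, and both wells beside it lay below the median in both replicates. The replicates put the top in different wells, the second in replicate I and the first in replicate II.

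TB74B10 to TB74B11 had 2.69 and 2.93 units in replicate I and 2.11 and 2.19 units in II, with 113 wells without an upper probe before it. TB07C05 to TB07C07 had 2.79, 2.69 and 2.28 units in replicate I and 2.50, 2.78 and 1.79 units in II. Its shoulders were broad in replicate I, at 1.46 units before and 1.14 units after the run. TA20H02 to TA20H03 had 2.68 and 2.96 units in replicate I and 2.05 and 2.18 units in II.

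TA60G07 to TA60G09 was one-sided. It began with its top, at 3.57 units in replicate I and 3.21 in II, and stepped down over 2.63 and 2.22 units to 1.63 and 1.09 units. TA17B03 to TA17B06 leaned the other way, with 2.47, 2.66, 3.22 and 1.95 units in replicate I and 2.00, 2.40, 2.81 and 1.09 units in II. After it, TA17B07 lay at -0.38 and -0.24 units.

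The last 3 of the 12 highest had their top at an inner well in both replicates. TB87H07 to TB87H09 had 2.24, 2.86 and 2.47 units in replicate I and 1.54, 2.52 and 2.24 units in II. TC10D06 to TC10D09 had 2.20, 3.05, 2.997 and 2.48 units in replicate I and 1.28, 2.30, 2.54 and 1.56 units in II. TA88F11 to TA88G01 had 2.78, 3.03 and 1.90 units in replicate I and 1.92, 2.64 and 1.25 units in II. Before this last run TA88F10 was at 0.36 units in replicate I but 1.11 in replicate II, one of the few edges set by replicate I.

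**Figure D4:**
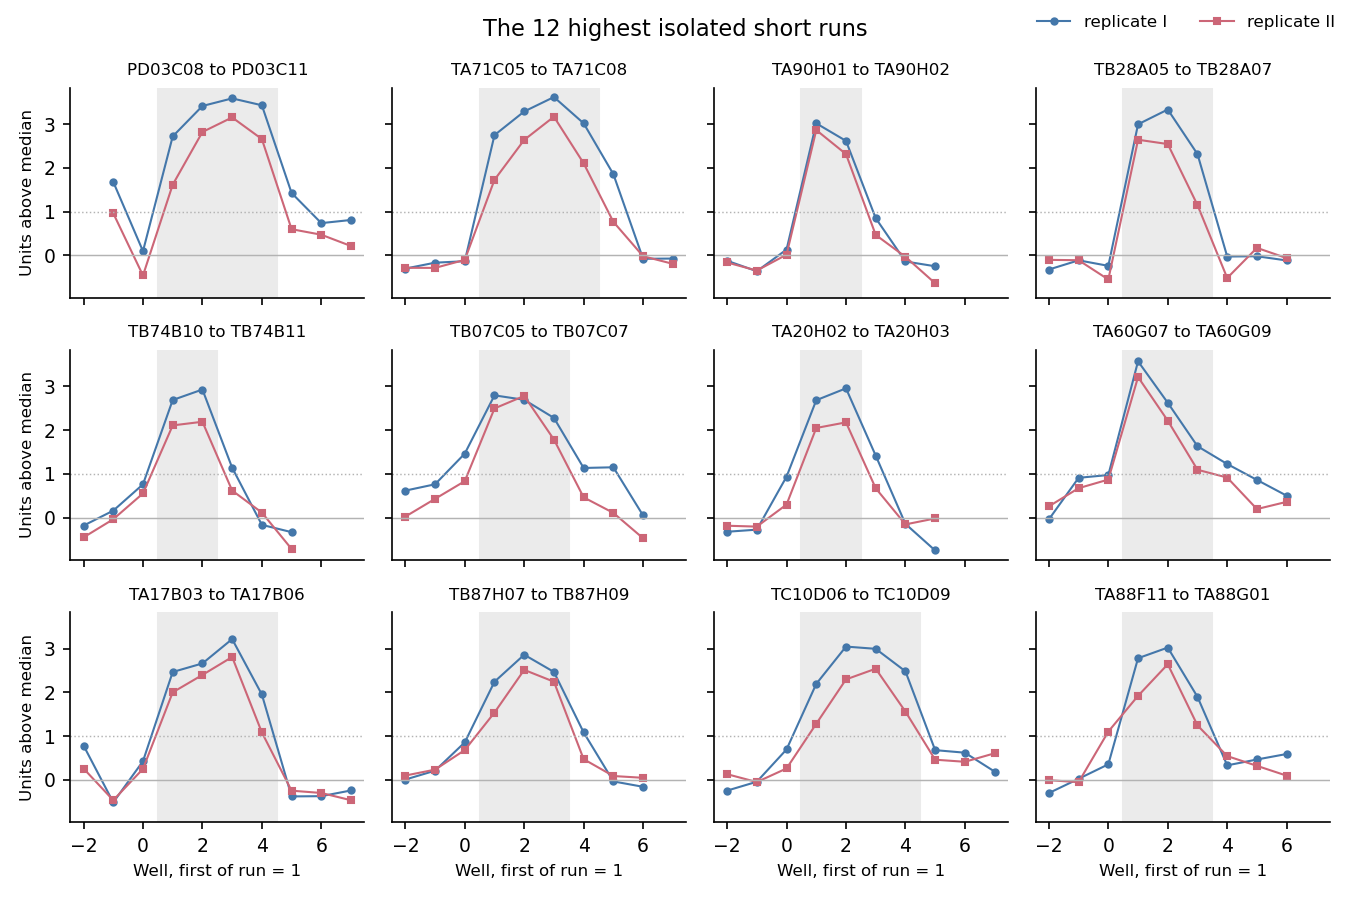
Values of the 12 highest isolated short runs (1 panel each) in units above the median (y axis) by well (x axis, the first well of the run is 1), in replicate I (blue circles) and replicate II (red squares), with up to 3 wells on each side; grey marks the run, the dotted line the rule of 1 unit. TB28A05 to TB28A07 falls below the median on both sides, whereas TB07C05 to TB07C07 has broad shoulders in replicate I.

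The next 8 isolated runs ranged in mean from 2.08 to 2.23 units. TB24C11 to TB24C12 averaged 2.73 units in replicate I and 1.73 in II, TB58F09 to TB58F11 2.66 and 1.78, and TA08A01 to TA08A02 2.39 and 2.05. Among these, TB58F09 to TB58F11 was the most remote, with 104 wells without an upper probe before it and 79 after it. TC06C08 to TC06C11 averaged 2.56 and 1.84 units, TC10A11 to TC10A12 2.62 and 1.66, and TC09H02 to TC09H04 2.37 and 1.90. TB76A07 to TB76A10 averaged 2.47 and 1.73 units, and TB28D06 to TB28D07 2.51 and 1.65. Replicate I was the higher in all 8, as in nearly all short runs on this scale.

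Of the isolated runs, 5 had no upper probe within 50 wells on either side, counting the end of a series as empty. TA25F02 to TA25F04 had the widest surroundings, 404 wells before and 259 after, and averaged 2.01 units in replicate I and 1.15 in II. Not all of these wells carried a value: 251 of the 259 did, and plate TA 22, which lies before the run, had 60 probes with a value. TA19C06 to TA19C08 averaged 2.35 and 1.54 units, TB87A07 to TB87A10 2.10 and 1.17 units, and TD01H03 to TD01H04, near the end of its series, 1.79 and 1.45 units. TB58F09 to TB58F11, given above, was the fifth, and it alone of the 5 was among the 20 highest isolated runs.

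Wells beside isolated runs often passed 1 unit in 1 replicate only. In 34 of the 103 isolated runs both edge wells stayed under 1 unit in each replicate. In 15 all wells within 10 on either side did so, a criterion added after the data were seen. Over the whole array, 9.11% of the probes that were not upper passed in replicate I only and 1.10% in replicate II only. Among that many flanking wells such a probe is common at these shares, so no trait of the isolated runs is read from the 2 counts. With isolation asked over 5 or 20 wells, also added later, 190 or 42 short runs met it. When runs were called in replicate I alone, 90 short runs were isolated, and in replicate II alone 93. The highest of the 15 were TB28A05 to TB28A07, TC10D06 to TC10D09 and TC09H02 to TC09H04.

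The short runs are counted by series beside the probes and the upper probes of each. TA held 171 of the 416 (41.1%, with 42.9% of the probes) and TB 209 (50.2%, with 44.2% of the probes). TC held 25 (6.01%, with 11.0% of the probes), TD 3 (0.721%, with 0.442%) and PD 8 (1.92%, with 1.45%). Per 1000 probes this was 18.3 short runs in TA, 21.8 in TB, 10.4 in TC, 31.3 in TD and 25.3 in PD. The last 2 values rest on few runs. In TA, TB and TC the shares of all upper probes were closer to those of the short runs than the shares of probes were. TA held 42.1% of the upper probes, TB 49.7% and TC 5.28%. In TD and PD, which held 0.255% and 2.70% of the upper probes, the shares of probes were the closer ones. Upper probes made up 15.9% of the probes in TA, 18.3% in TB, 7.75% in TC, 9.38% in TD and 30.1% in PD. In TC all short runs began on plates up to 12, where there were 20.03 per 1000 probes over 1248 probes, and the 1152 probes of later plates held 1 upper probe. That division of TC was made after the values were seen.

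As a share of the upper probes, short runs held 32.7% in TA, 33.3% in TB and 37.6% in TC, against 24.2% in PD and 77.8% of the 9 upper probes in TD. They averaged 2.19 ± 0.47 units in replicate I and 1.60 ± 0.35 in II in TA, 2.19 ± 0.39 and 1.57 ± 0.32 in TB, and 2.24 ± 0.44 and 1.55 ± 0.30 in TC. PD stood higher, at 2.70 ± 0.60 and 2.14 ± 0.57 units over 8 runs, whose range overlapped that of the other series. Isolated runs numbered 39 in TA, 54 in TB, 7 in TC, 1 in TD and 2 in PD.

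The highest short run of each series was named by a fixed rule. Those of PD, TA and TB are given above. TC11A06 to TC11A08 led the TC series, with 2.39, 3.38 and 2.87 units in replicate I and 1.61, 2.49 and 2.41 units in II. TD01A03 to TD01A05 led the TD series, with 1.95, 2.28 and 3.22 units in replicate I and 1.49, 1.89 and 2.25 units in II, with the top at its last well in both.

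Along the plates, 172 of 231 had at least 1 short run starting on them, with a median of 2 per plate and a maximum of 6. That maximum was reached by plates TA 5, TA 71 and TB 1. Plate TA 5 held 19 upper probes and no run of 5 or more began on it. In replicate I its lowest was TA05B02 to TA05B04, at 2.07 units in replicate I and 1.57 in II, and its highest TA05F09 to TA05F10, at 3.34 and 1.87 units. On 54 plates short runs began and no run of 5 or more did.

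Plates rich in upper probes were not always rich in short runs. On plate TA 97, 86 of 96 probes were upper and 1 short run began there, and on plate TA 84, with 50 upper probes, none did. Few wells on TA 97 were left that could end a run, so short runs had little room there by construction. Plates TA 2, with 43 upper probes, and TB 1, with 36, had 5 and 6 short runs. All these plates were singled out after their values were seen. Of the 59 plates without a short run, 27 held upper probes.

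**Figure D5:**
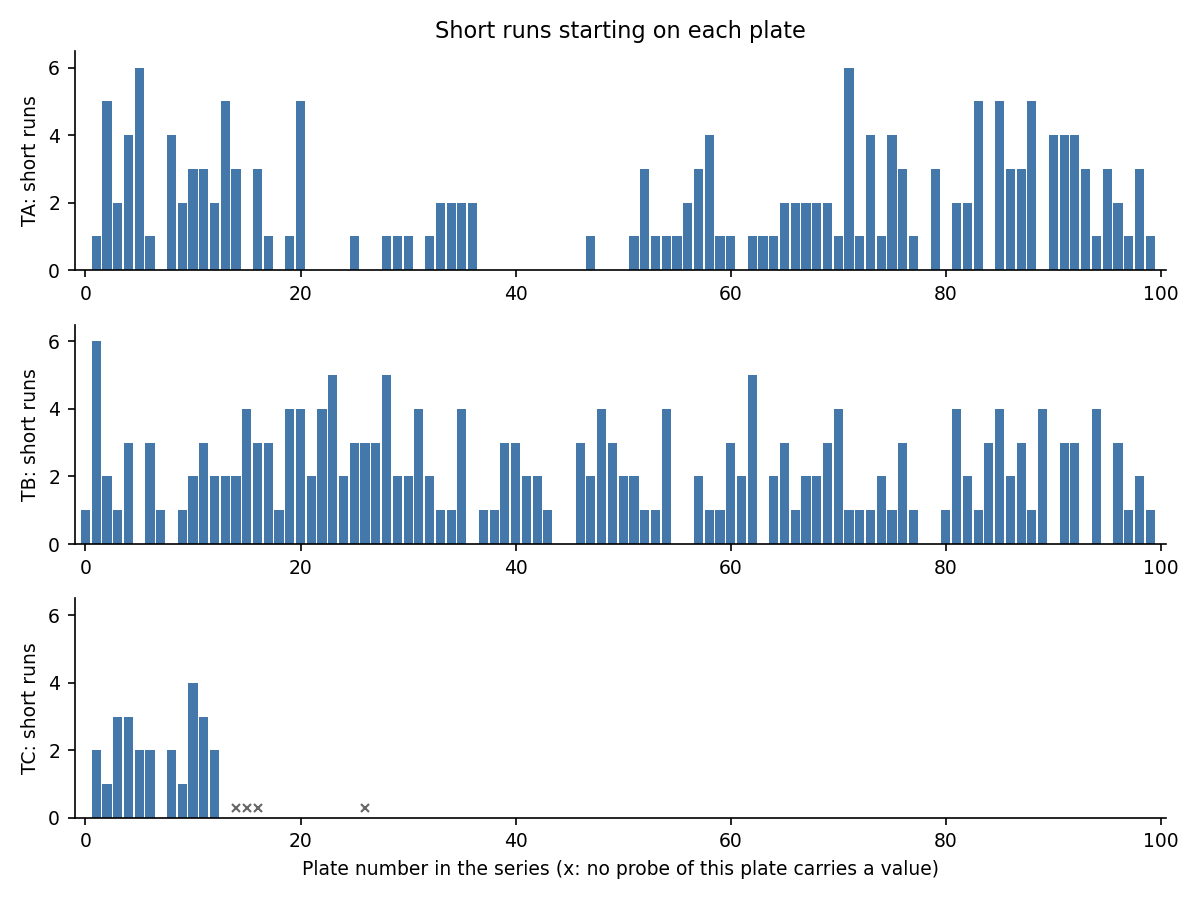
Number of short runs that start on each plate (y axis) by plate number (x axis) for the TA, TB and TC series; crosses mark plate numbers for which no probe carries a value. TC has none after plate 12, and TA has a wide gap between plates 36 and 47.

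Successive short runs of a series were a median of 27 wells apart, and in 195 of 411 such pairs no other upper probe lay between them. In such a pair the next run of any length was itself short, and 44.8% of all runs are short. No clustering of short runs is read from this count. The widest spacing ran from TA36G03 to TA36G05 up to TA47G12 to TA47H02, over 1062 wells of which 974 carried a value, with 3 upper probes between. The next ran from TA20H02 to TA20H03 up to TA25F02 to TA25F04, over 454 wells of which 407 carried a value, with 15 upper probes between. In TC the last short runs lay on plate 12.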

How the data were processed

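The deposited score is 1 value per probe and array. The 2 arrays of each dye pair carry the same deposited score (largest difference 0). How the authors corrected background, normalized and centred the score, and its log base and direction, is not given in the sources used here. Replicate I had a deposited median of -0.94, and replicate II one of -1.20. No value is given for 39 control features and 21 plate-and-well probes.

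The arrays of each pair were averaged, and the median of a replicate was subtracted from its values. Wells were numbered by plate, 8 rows of 12 and 96 wells per plate, and a missing well ended a run. Runs could cross to the next numbered plate. Precision rests on 2 replicates, since single intensities are not used here. The run finder was tested on simulated data, and it recovered 130 of 130 planted runs of 2 to 4 among 21761 wells. The planted wells stood far above the rule and their flanks far below it, unlike many runs of the data. The simulation therefore checks how wells are joined into runs, and says nothing about how well real runs are called.

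The members and lists were chosen with earlier results of these data known. Named were the 20 highest isolated runs (the first 12 with every probe), the 5 highest short runs, the highest of each series, the 3 on each side of the rule and the 3 fullest plates. The alternatives were other centrings and scalings, other rules of size, each replicate left out, bridging, plate boundaries, missing wells, the sign turned and the PD series left out, and 4 other definitions of isolation added after the data were seen. Computation used numpy 2.4.6, scipy 1.17.1, pandas 2.3.3 and matplotlib 3.10.9 under Python 3.11.15.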

Additional observations from a re-analysis of the deposited data

How the results depend on the processing

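Counts and gaps were taken as moved beyond 1.5 times, shares outside the 95% exact binomial interval (counting error only) and heights beyond the SD between the replicates. For the mean heights this SD was 0.43 units, set by the offset between the 2 replicate means, so it is a wide measure. By it, 1.78 units in replicate I after quantile normalization, against 2.20 units, counted as not moved. The measures for shares and for the median gap were changed after the first outcome had been seen: both had been set against the SD of the values with 1 replicate left out, by which 71 of the 162 alternative values moved. Over 13 results, 126 of 162 alternative values did not move, 36 did and 0 reversed. Without centring there were 190 short runs, which held 56.8% of the upper probes, with 42.1% in TB, 0% in TD and 6.32% in PD. The share of upper probes in short runs (33.1%) was 28.8% with mode centring, 31.4% with equal spread, 29.8% after quantile normalization, 24.0% at 0.5 units, 42.9% at 1.5 units, 25.8% with bridging and 25.6 to 31.6% with 1 replicate left out. Heights in replicates I and II were 1.58 and 1.10 units at 0.5 units, 2.65 units in replicate I at 1.5 units, and 1.70 to 2.15 and 1.07 to 1.57 units with 1 replicate left out, when TA held 41.3 to 46.2% of the short runs and TB 44.7 to 49.5%. The height in the replicate that did not call the runs was 1.07 units for runs called in replicate I and 2.15 units for runs called in replicate II. With the sign turned, 1 short run was found, in TA (100%, with 0% in the other series), at 1.39 and 1.14 units. It was isolated (1), 118 wells from the nearest run, with the same top well in both replicates (100%), and held 20% of the probes past the rule. The 103 isolated runs were 190 within 5 wells, 42 within 20 wells and 15 where no flanking well passed in either replicate. The definitions of isolation were chosen after seeing the data. A stricter or looser rule of size changes by construction what is counted. Leaving out the centring acts as a stricter rule, since both deposited medians are negative. For the other settings the cause was not tested. For 29 named runs, 139 values did not move, 35 did (29 without centring) and 0 reversed. Without centring each height is lower by a constant per replicate, so those 29 moves are a shift of the scale. Their heights were not recomputed under the settings that leave a well's value as it is, nor with the sign turned or without PD. No paired analysis was possible because all arrays form 1 group.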

Other observations

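Short runs started in every column and row of the plates. By column the number of starts lay between 25 and 49, and by row between 45 and 62. Of the 416 runs, 6 crossed a plate boundary and 3 lay beside a missing well or the end of a series.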
